A study of Mus musculus with 25 samples.

Results

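Small tumors on a BRAF inhibitor with an antibody against PD-L2 (n = 2) were compared with tumors resistant to the inhibitor alone (n = 3), all of the second batch of the series. These are 5 of the 25 libraries of the series, and the genes compared are the 11933 of 23940 symbols whose mean was at least 1 FPKM over those 5 libraries. FPKM are fragments scaled to transcript length and to the mapped fragments of the library, so levels are per length, and the other 12007 symbols stood below that mean.

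All tumors grew from YUMM1.7, a mouse melanoma line with mutant Braf, in C57BL/6 mice. The resistant tumors had grown out under the BRAF inhibitor and are called resistant 1, 2 and 3. The small tumors were still on the inhibitor with the antibody, are labelled residual, and are called small 1 and 2. The other tumors of the batch, large 1 and 2, were resistant to the inhibitor with the antibody and enter the fit for its estimate of the spread. All 7 had received the inhibitor. The sources used here name neither the inhibitor, the antibody's clone, doses, times nor the age of the mice, and do not say whether the tumors came from separate mice, so p-values measure the spread between these tumors, which may be technical. The compared groups differ both in the antibody and in being residual or resistant, and the parts of the antibody and of the state cannot be told apart. YUMM1.7 is 1 line, so a result holds for tumors of that line.

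Mutant BRAF drives the MAPK cascade from MEK to ERK, which induces its own feedback inhibitors (the DUSP phosphatases, the Sprouty and Spred proteins) and cyclin D1. Tumors under a BRAF inhibitor commonly lose this output, shrink to a residue rich in stroma and immune cells, and regain growth when they become resistant. PD-L2 is a second ligand of PD-1, the inhibitory receptor of activated T cells, and is found on macrophages, dendritic cells and some tumors, where type 2 cytokines induce it; it also binds RGMb.

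The label of a melanoma was checked against markers of melanocytes. Tyr, Tyrp1 and Dct, the enzymes of pigment synthesis, did not exceed 0.0678, 0.00993 and 0.0604 FPKM in any of the 7 libraries, and Mlana was listed at 0 in 6 of them and at 0.518 in small 2. Mitf, the master regulator of the lineage, was present at 13.9, 4.58 and 4.10 FPKM in resistant 1, 2 and 3 and at 6.06 and 3.86 in the small tumors. The defining pigment genes were thus at or near 0, and the melanocyte list passed the filter with 5 of 13 members (median log2 change 1.17, 0.12 without the filter and 0.49 without small 1).

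The FPKM of the 7 libraries summed to between 641477 and 948690, of which the single symbol Mir2137 made up 12.3% (small 2) to 36.5% (resistant 2), and 11081 to 12102 genes per library reached 1 FPKM. The deposited table holds no counts, so sequencing depth is unknown. Pearson correlations of log2(FPKM + 1) between these libraries lay between 0.85 and 0.956, and small 1 and small 2 correlated at 0.911. The median within-group SD of a gene was 0.283 on the log2 scale in the resistant tumors and 0.162 in the small ones. Single libraries stood apart in named genes. Sox10, a transcription factor of the neural crest, was at 140 FPKM in small 2 and 188 in large 1, and at most 1.18 in the other 5 libraries. Resistant 2 stood apart in interferon-stimulated and muscle genes, which are given with those groups.

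No gene passed at an adjusted p below 0.05. Limma called 0 of 11933 genes (0%), the smallest adjusted p was 0.105, and 1460 genes had an unadjusted p below 0.05. Of these 943 were higher (7.9% of all tested) and 517 lower (4.33%) in the small tumors. With the spread estimated from all 25 libraries 759 genes passed (6.36%), 479 higher and 280 lower, and with the 5 libraries alone 5 passed. The batch 1 groups had median SDs of 0.171 to 0.217, against 0.283 in the resistant tumors of batch 2. The spread of all 25 libraries may thus be too small here. Its p-values below are an alternative and not added support. Leaving out 1 library at a time gave 26 called genes without small 2, 5 without small 1, 5 without large 1, 2 without large 2, 2 without resistant 3, 1 without resistant 2 and 0 without resistant 1. A fit without small 1 or small 2 has 1 small tumor, which is assumed to vary like the other groups, so its calls do not reflect the spread between the small tumors. The libraries of the groups did not overlap for 1756 genes in which both small tumors were higher (14.7%) and for 2061 in which both were lower (17.3%). These shares are the background for the counts without overlap in every list below. The median log2 change over all tested genes was -0.07. Members of a gene list that passed the filter only through the small tumors had to be higher there, so the counts and medians of lists below describe the tested members. Medians at least 0.2 from 0 are given also without the filter or without 1 library where that moves them by over 1.5 times. All log2 changes below are small minus resistant on the log2(FPKM + 1) scale, given ± SE, and understate the change of low genes. Higher and lower describe the libraries, and none of the genes below passed the test unless another fit is named.

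**Figure D1:**
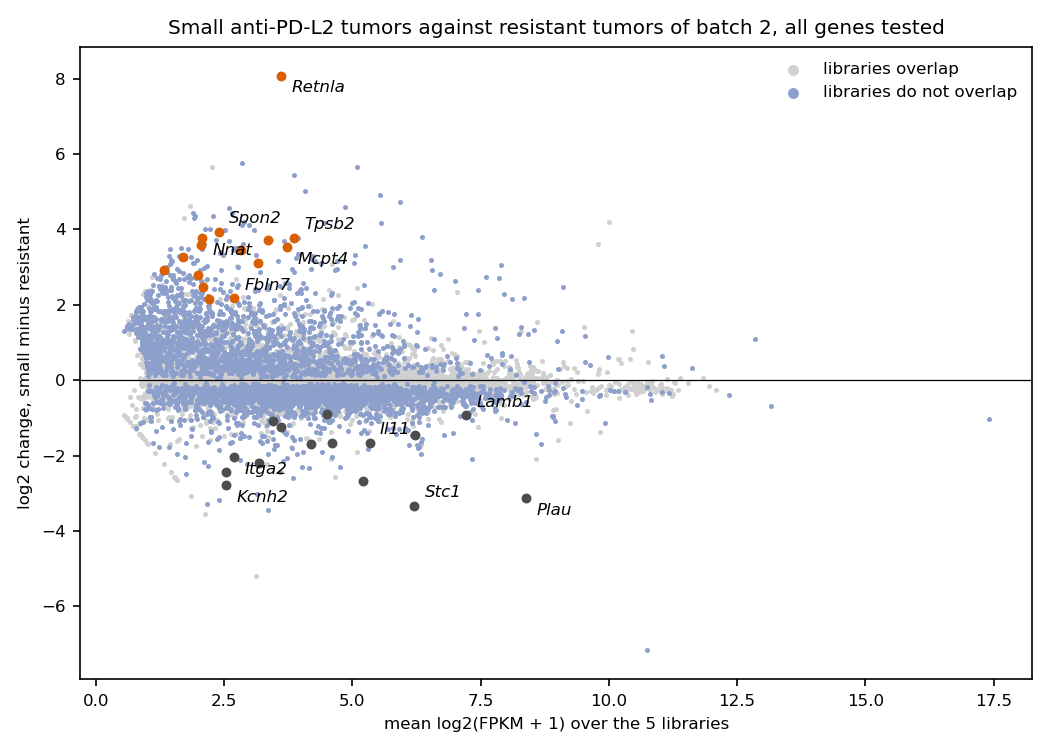
Log2 change (small anti-PD-L2 minus resistant, y axis) against mean log2(FPKM + 1) over the 5 libraries (x axis) for the 11933 genes tested; orange and dark points are the 15 higher and 15 lower genes named by rule. Retnla lies highest among them at 8.08, Stc1 and Plau lowest at -3.33 and -3.12, and none of the points passed an adjusted p of 0.05.

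The 15 higher genes named by rule, those with the smallest unadjusted p among genes whose libraries did not overlap, were led by genes of myeloid cells, mast cells and matrix. Their adjusted p lay between 0.105 and 0.135 and their log2 changes between 2.15 and 8.08. In large 1 none of the 15 lay within the range of the small tumors, and none did in large 2. Against the resistant range, large 1 lay above in 4 of them, within in 6 and below in 5. Large 2 lay above in 8, within in 6 and below in 1. With the spread of all 25 libraries 11 of the 15 passed, beside 6.36% of all genes tested. The 15 lower genes had adjusted p from 0.105 to 0.199 and log2 changes from -0.90 to -3.33, and 13 of the 15 passed with the spread of all 25 libraries. That fit keeps the log2 changes, and both sets of 15 were picked on the same libraries. The counts that passed were thus largely set by the choice of genes. In these lower genes large 1 lay below the resistant range in 12, within it in 1 and above it in 2. Large 2 lay below in 6, within in 6 and above in 3.

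Retnla encodes resistin-like alpha, a secreted protein of alternatively activated macrophages. It was at 1002 FPKM in small 1 and 122 in small 2, against 0.245, 0.221 and 0.439 in the resistant tumors and 0.774 and 0.958 in the large ones. Both small tumors thus stood far above the other 5 libraries, and they differed from each other as well. Its log2 change was 8.08 ± 0.79 (adjusted p = 0.105, and 1.13e-05 with the spread of all 25 libraries). Without small 1 the change was 6.57 (adjusted p = 0.0043) and without small 2 it was 9.59 (adjusted p = 0.000837), in fits that take the lone small tumor to vary like the other groups and leave out the spread between small 1 and small 2. Retnla has a near copy, Retnlg, and the gene counting could split reads between them; Retnlg was at 6.75 and 4.39 FPKM in the small tumors and at 3.47, 2.40 and 0.438 in the resistant ones.

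The promoters of 4 genes described here are shown with any AP-1 sites, where FOS and JUN proteins bind. They are examples and do not illustrate the shares of the gene sets. RefSeq promoters (GRCm38.p6, 250 bases before to 50 after the start) matched 9509 of the 11933 genes. The letters TGANTCA, read on both strands, were in 6.7% of these. A gene counts where any of its listed windows holds a match. The share was 12% among matched genes with an unadjusted p below 0.05 and both small libraries above all resistant ones (84 of 701 matched, of 933 genes). In the other direction it was 5.45% (21 of 385 matched, of 513 genes). These shares were not tested, and a match is a run of letters, not a bound site. The window of Retnla holds no match, and Folr2, a folate receptor of tissue macrophages, has 1 at -74 from the start. In Il11 the match lies at -98 and in Mmp13 at -35. Folr2 and Il11 each have another listed start, whose window holds none and is not shown. Folr2 is a higher gene, and Il11 and Mmp13 are lower ones. Capitals mark the AP-1 letters; the windows are chr16:48842359-48842658 (plus strand), chr7:101845282-101845581 (minus), chr7:4778092-4778391 (minus) and chr9:7272264-7272563 (plus).
Retnla: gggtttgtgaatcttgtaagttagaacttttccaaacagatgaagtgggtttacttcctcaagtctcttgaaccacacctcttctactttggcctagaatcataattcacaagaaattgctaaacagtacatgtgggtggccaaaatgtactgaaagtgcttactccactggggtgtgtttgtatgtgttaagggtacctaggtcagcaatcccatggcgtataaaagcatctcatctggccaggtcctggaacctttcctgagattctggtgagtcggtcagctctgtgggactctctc
Folr2: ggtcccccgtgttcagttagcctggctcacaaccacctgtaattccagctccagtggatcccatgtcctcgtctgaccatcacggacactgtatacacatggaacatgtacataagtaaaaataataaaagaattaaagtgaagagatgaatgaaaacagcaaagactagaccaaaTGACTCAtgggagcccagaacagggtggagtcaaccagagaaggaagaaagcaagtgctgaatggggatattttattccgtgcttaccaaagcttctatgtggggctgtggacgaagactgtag
Il11: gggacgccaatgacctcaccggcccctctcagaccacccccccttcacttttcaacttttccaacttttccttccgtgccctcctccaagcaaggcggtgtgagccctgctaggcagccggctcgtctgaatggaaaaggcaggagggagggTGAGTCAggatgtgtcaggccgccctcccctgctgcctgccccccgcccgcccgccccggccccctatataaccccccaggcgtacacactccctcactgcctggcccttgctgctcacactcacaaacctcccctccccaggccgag
Mmp13: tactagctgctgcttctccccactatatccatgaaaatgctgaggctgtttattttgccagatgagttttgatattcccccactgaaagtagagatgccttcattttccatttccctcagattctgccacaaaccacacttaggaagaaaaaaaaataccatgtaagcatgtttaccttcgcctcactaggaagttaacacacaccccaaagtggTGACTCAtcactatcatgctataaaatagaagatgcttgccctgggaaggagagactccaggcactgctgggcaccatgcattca
The core of the interferon-stimulated response element, GAAANNGAA, was in a promoter of 11.6% of the matched higher genes, 7.53% of the lower and 8.88% of all. The cell cycle homology element TTTGAA was in 16.3%, 15.1% and 14.2%, and the hypoxia core ACGTG in 24.3%, 27.8% and 29.5%, in the same order. Each motif was searched on both strands on its own, and matches of different motifs may overlap.

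Other genes of alternatively activated macrophages stood higher too. Of the 12 members of that list, all tested, both small tumors lay above the resistant ones for 7 and below for 1, and the median log2 change was 1.99, which became 1.08 without small 1 and 3.38 without small 2. Folr2 was at 109 and 51.8 FPKM in the small tumors against 8.94, 10.3 and 5.23 in the resistant ones (log2 change 3.11 ± 0.44, adjusted p = 0.135). The scavenger receptor Cd163 was at 63.0 FPKM in small 1, 7.82 in small 2 and 3.34, 1.28 and 1.59 in the resistant tumors. The coagulation factor F13a1 was at 139 and 27.7 against 12.8, 10.2 and 12.5 FPKM. In all 3 of these genes small 1 held the highest level. Arginase 1 (Arg1) and the lectin Mgl2 were high in small 1 only, with 176 and 69.0 FPKM against 17.4 and 9.85 in small 2, which lay within the resistant range for both. Ear2, a ribonuclease of eosinophils and some macrophages that was chosen after its values were seen, was at 52.6 and 9.06 FPKM in the small tumors and at most 0.479 in the other 5 libraries (log2 change 4.35 ± 0.67, adjusted p = 0.154); it belongs to a family of near copies.

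Macrophage genes at large were higher in the small tumors by less. Of 18 members 12 did not overlap upward and 1 downward, beside 14.7% and 17.3% of all genes. The median log2 change was 1.23, with 0.80 without resistant 3, 0.79 without small 1 and 1.86 without small 2. Emr1, which encodes F4/80, was at 73.3 and 35.1 FPKM against 18.8, 19.7 and 11.2 (1.6 ± 0.43, adjusted p = 0.268). Itgam, the integrin CD11b, was at 66.5 and 24.7 against 11.6, 15.2 and 12.8 FPKM. These are bulk biopsies, in which fewer cells of a type and less RNA per cell cannot be told apart. Lyz1, a lysozyme of myeloid and Paneth cells with the near copy Lyz2, was at 43.6 and 23.3 FPKM against 3.38, 3.26 and 1.89 (3.12 ± 0.36, adjusted p = 0.105, and 0.000378 with the spread of all 25 libraries). Serpinb1a, an inhibitor of neutrophil proteases, was at 13.6 and 8.72 FPKM against 0.790, 1.92 and 0.880, with the large tumors between at 3.93 and 3.35.

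Chemokines that attract T cells and monocytes accompanied them. Among the CC chemokines 6 of 13 tested members did not overlap, all upward (median log2 change 1.77, 1.101 without resistant 1). Ccl22 and Ccl17, the ligands of Ccr4 on type 2 and regulatory T cells, were at 13.6 and 21.9 FPKM and at 34.0 and 8.17 FPKM in the small tumors. In the resistant tumors Ccl22 was at 0.278, 1.7 and 0.0357 and Ccl17 at 0.804, 1.18 and 0.0600. Both genes were clear of the resistant range in both small tumors (3.58 ± 0.46 and 3.48 ± 0.60, adjusted p = 0.135 and 0.186). Ccl8 was at 1201 and 590 FPKM against 94.7, 226 and 47.8 (3.05 ± 0.69, adjusted p = 0.224). Of the neutrophil list 9 of 16 members were tested and 3 did not overlap, all upward, beside 14.7% of all genes. The median of the tested members was 0.79, with 0.51 without resistant 1, 1.197 without resistant 2 and 0.48 without resistant 3. Among them was the lectin Clec4d at 25.7 and 3.83 FPKM against 1.02, 2.62 and 1.5. The summed list overlapped, at 76.2 and 55 FPKM in the small tumors and 30.1, 139 and 20.7 in the resistant ones. It was at 31.3 in large 1 and 148 in large 2, the highest of the batch. Only 2 of 7 genes listed as neutrophil-attracting chemokines were tested (median 1.32, 0.53 without the filter, and between 0.37 and 2.09 with 1 library left out). Of these Pf4, the platelet factor, was at 256 and 61.2 FPKM against 49.7, 40.4 and 48.3. The summed list, at 270 and 63.8 FPKM in the small tumors, was mostly Pf4 and says little of the other members.

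Mast cell genes were high in both small tumors. All 7 tested of 9 members lay higher in both small tumors, with a median log2 change of 3.46, and 2.47 without the filter. The tryptase Tpsb2 was at 87.5 and 55.0 FPKM against 6.15, 5.00 and 2.11 in the resistant tumors (3.79 ± 0.39, adjusted p = 0.105). The chymase Mcpt4 was at 74.8 and 42.9 against 4.67, 5.36 and 2.40 (3.54 ± 0.37, adjusted p = 0.105). The chymase Cma1 was at 69.5 and 32.0 against 3.41, 2.98 and 1.76 FPKM, and the carboxypeptidase Cpa3 at 48.9 and 17.1 against 2.36, 1.37 and 1.59. Small 1 held more of each protease than small 2, and Mcpt4 in the large tumors, at 2.93 and 4.51 FPKM, lay in the resistant range. The receptor genes were lower in level and followed: Fcer1a, the binding chain of the IgE receptor, was at 9.75 and 4.51 FPKM against 0.496, 0.407 and 0.275, and Kit at 3.49 and 2.28 against 0.772, 0.917 and 0.462. Ms4a2 and Hdc, the histamine-forming enzyme, stood below the filter; Ms4a2 was at 1.33 and 0.774 FPKM against at most 0.0629. None of the 7 passed with the spread of all 25 libraries, where Mcpt4 had an adjusted p of 0.12. Tryptases are near copies, and Tpsab1 (4.29 and 2.94 against 0.289, 0.229 and 0.203 FPKM) passed when no expression filter was set (adjusted p = 0.0423).

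**Figure D2:**
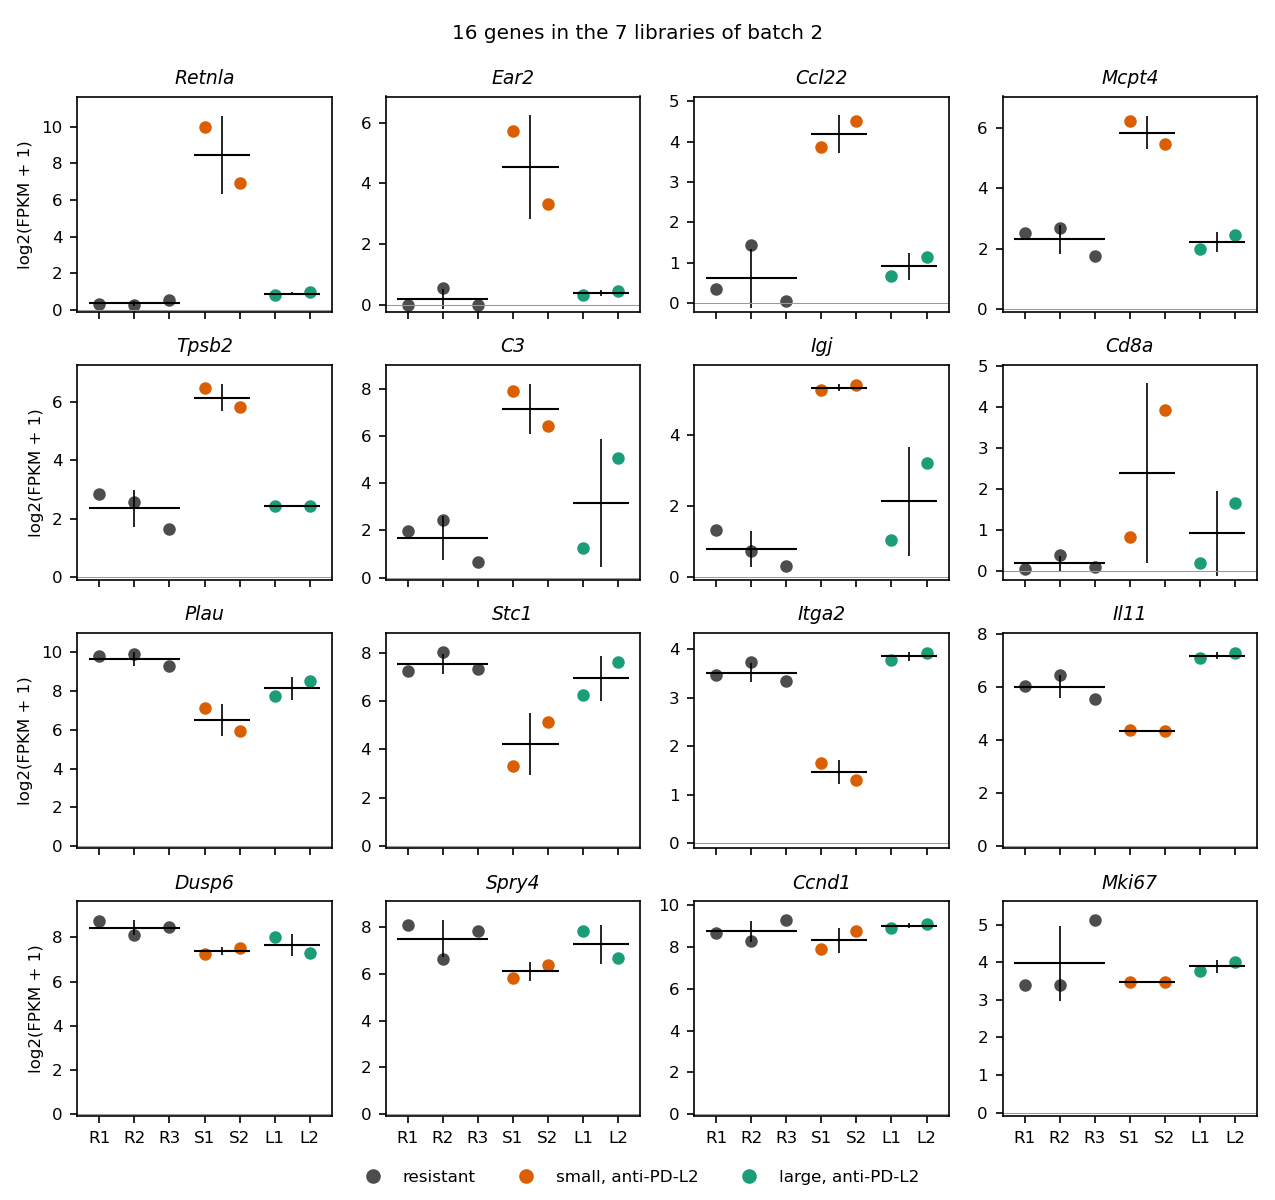
Log2(FPKM + 1) of 16 genes in the 7 libraries of batch 2 (R resistant, S small, L large; x axis); points are libraries, horizontal bars group means and vertical bars 1 SD. Retnla, Ear2, Ccl22, Mcpt4 and Tpsb2 were high in S1 and S2 only, Plau, Stc1, Itga2 and Il11 were lowest there, and Ccnd1 and Mki67 overlapped between small and resistant tumors.

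Complement genes were higher in the small tumors as well. Of 13 members 12 did not overlap, all upward, beside 14.7% of all genes. The median log2 change was 1.80, and 0.95 without small 1. C3, the central component, was at 236 and 83.6 FPKM in the small tumors, 2.97, 4.37 and 0.573 in the resistant ones, and 1.36 and 32.4 in the large ones (5.46 ± 1.15, adjusted p = 0.208, and 0.00222 with the spread of all 25 libraries). C1s, a protease of the first component, was at 85.8 and 43.6 against 5.56, 17.8 and 3.22 FPKM (2.95 ± 0.64, adjusted p = 0.209). C4b was at 189 and 80.1 against 6.55, 15.6 and 1.53, and at 134 in large 1. Acute-phase genes were tested in 7 of 12 cases, and 4 did not overlap, all upward (median 1.84, and 0.77 without the filter). Haptoglobin (Hp) was at 369 and 341 FPKM against 43.8, 17.7 and 0.991, but at 335 in large 2; Orm1 was at 4.51 and 3.81 against 0.228, 0.0405 and 0, and Saa3 at 49.8 and 27.0 against 6.13, 9.56 and 2.35.

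Adipocyte genes were high in the same libraries. All 10 members lay higher in both small tumors, with a median log2 change of 3.84 and the summed level of the list at 864 and 1063 FPKM, against 68.3, 33.5 and 8.1 in the resistant tumors and 5.28 and 469 in large 1 and 2. Adiponectin (Adipoq) was at 40.2 and 47.3 FPKM against 6.93, 1.35 and 0.209, with 24.9 in large 2. The fatty acid carrier Fabp4 was at 340 and 548 against 30.0, 18.1 and 6.55 FPKM. Plin4 and Plin1, coats of lipid droplets, were at 11.9 and 13.1 and at 8.67 and 14.2 FPKM, against at most 0.453 and 0.431 in the resistant tumors. Plin4 passed with the 5 libraries alone (adjusted p = 0.0443) and not in the fit of 7 (3.50 ± 0.78, adjusted p = 0.222). Several genes given here are also made by fat tissue, among them Retnla, C3, Hp, Lpl and Cd36, and large 2 was high in adipocyte genes, C3 and Hp but not in Retnla. The part of adipose tissue in these results was not tested.

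Among the higher genes named by rule that are known from fat or liver, Ces1d, a carboxylesterase, was at 6.03 and 9.24 FPKM against 0.301, 0.0429 and 0 (2.94 ± 0.38, adjusted p = 0.135), and Cyp2e1, a cytochrome that oxidizes ethanol, at 9.59 and 13.9 against 0.517, 0.269 and 0.166. Nnat, an imprinted gene for a small membrane protein of neurons and adipocytes, was at 11.0 and 32.5 against 0.435, 0.526 and 0.455 FPKM (3.77 ± 0.49, adjusted p = 0.135). In all 3 large 2 lay above the resistant tumors, with 1.01, 1.83 and 1.89 FPKM, and large 1 within or near their range. Lpl, the lipoprotein lipase, was at 27.2 and 27.1 FPKM and the fatty acid receptor Cd36 at 23.3 and 22.6, against at most 1.83 and 1.33 in the resistant tumors. Dpep1, a dipeptidase, was at 14.5 and 9.45 against 1.03, 1.25 and 0.365 FPKM, and Kcnab2, a potassium channel subunit, at 11.7 and 9.04 against 1.22, 1.93 and 1.52.

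T cell genes stood higher, most of all in small 2. Of 13 tested members 12 did not overlap, all upward, beside 14.7% of all genes. The median log2 change was 2.26, with 3.46 for a pseudocount of 0.1 and 1.44 without small 2. The summed list reached 106 and 235 FPKM in the small tumors against 18.9, 28.8 and 10.7 in the resistant ones. Cd2, an adhesion receptor, was at 8.70 and 18.0 FPKM against 0.490, 1.38 and 0.0858 (3.11 ± 0.63, adjusted p = 0.208, and 0.0304 with the spread of all 25 libraries). Cd3g of the T cell receptor complex was at 3.49 in small 1 and 26.3 in small 2, against 0.571, 1.33 and 0.234. Cd8a, the coreceptor of killer T cells, was at 0.785 and 14.2 FPKM against 0.0394, 0.322 and 0.0808 (2.19 ± 0.90, adjusted p = 0.406). Large 2, with Cd8a at 2.15, lay above small 1. Thy1, which fibroblasts express too, was at 77.3 and 47.3 against 12.6, 16.9 and 7.68 FPKM.

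Genes of cytotoxic lymphocytes separated less. Of 9 tested members 5 did not overlap, all upward, beside 14.7% of all genes. The median was 1.39, with 0.88 without the filter, 0.87 without resistant 3 and 2.14 without resistant 2. The killer cell receptors Klrk1 and Klrd1 were at 3.33 and 2.18 and at 5.72 and 10.0 FPKM, against at most 1.27 and 4.18. The granule inhibitor Cst7 was at 3.80 and 8.58 against 0.901, 2.60 and 0.248. Granzyme B (Gzmb) overlapped, with 7.45 and 7 FPKM in the small tumors and 27.5 in resistant 2 against 0.933 and 0.629 in the other resistant tumors. Of 8 regulatory T cell genes 3 were tested (median 1.29, and 0.77 without the filter): Tnfrsf4 (OX40) was at 2.28 and 5.71 FPKM against 0.686, 0.963 and 0.155, Tnfrsf18 (GITR) at 3.19 and 6.90 against 2.01, 2.09 and 0.391, and the lineage factor Foxp3 overlapped at 0.988 and 2.66 against 0.997, 1.11 and 0.699.

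Genes of B and plasma cells were higher in both small tumors for 7 of 9 tested members (median log2 change 2.21, 3.79 with a pseudocount of 0.1). Without small 1 it was 3.27. Igj, the joining chain of secreted IgA and IgM, was at 37.2 and 41.4 FPKM against 1.48, 0.656 and 0.218, with 1.03 and 8.28 in the large tumors. Its log2 change was 4.56 ± 0.64 (adjusted p = 0.135, and 0.0443 with the 5 libraries alone). Mzb1, a chaperone of antibody secretion, was at 4.22 and 9.02 against 0.176, 0.159 and 0.0522 (2.68 ± 0.42, adjusted p = 0.163). The B cell genes Cd79a and Pou2af1 were uneven, with 1.85 and 1.27 FPKM in small 1 and 27.6 and 9.68 in small 2, and at most 0.210 and 0.0988 in the resistant tumors. Large 2 lay above small 1 in both, at 10.2 and 2.77. Cxcl13, the chemokine that draws B cells into follicles, was chosen after its values were seen; it was at 21.7 and 23.4 FPKM against 0.0919, 0.132 and 0.0200 and at 14.9 in large 2 (4.45 ± 1.00, adjusted p = 0.224, and 0.0189 with the 5 libraries alone).

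Genes of class II antigen presentation were higher, with a wide spread among the resistant tumors. For class II, 9 of 10 members did not overlap, all upward (median 1.88): H2-Aa was at 850 and 609 FPKM against 176, 316 and 22.1 (2.73 ± 1.14, adjusted p = 0.411), and the regulator Ciita at 4.54 and 3.65 against 1.47, 1.84 and 0.397. H2-DMb2, which helps load class II molecules, was at 5.13 and 8.27 against 0.969, 1.80 and 0.232. For class I, 2 of 13 did not overlap upward, a share near the 14.7% of all genes, with a median of 1.58 (2.46 without resistant 2 and 0.97 without resistant 3). H2-K1 was at 358 and 623 FPKM against 63.7, 354 and 30.5, so resistant 2 nearly reached small 1. Dendritic cell genes were tested in 6 of 11 cases and 4 did not overlap, all upward (median 1.05, 1.62 with a pseudocount of 0.1, 0.57 without the filter and 0.57 without small 1); Ccr7, the homing receptor of migrating dendritic cells and naive T cells, was at 6.34 and 18.2 FPKM against 0.356, 2.62 and 0.157, Cd209a at 19.9 and 2.95 against 0.553, 0.331 and 0.113, and Batf3 at 4.46 and 5.90 against 1.05, 2.51 and 0.321.

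Interferon-stimulated genes mostly overlapped, with resistant 2 as high as or higher than the small tumors. Of 19 type I interferon-stimulated genes 1 did not overlap (Ifi27l2a, at 435 and 278 FPKM against 26.4, 212 and 8.33), and the median log2 change was 0.74, with 0.45, 1.93 and -0.04 without resistant 1, 2 and 3. Isg15 was at 75.1 and 57.8 FPKM in the small tumors and at 300 in resistant 2, 33.7 in resistant 1 and 7.86 in resistant 3; without resistant 3 its log2 change turned from 0.57 to -0.61. Of 17 tested interferon gamma genes 2 did not overlap (median 1.21, 2.26 without resistant 2 and 0.58 without resistant 3): Cxcl9, which attracts activated T cells, was at 11.1 and 17.2 FPKM against 1.32, 7.49 and 0.248, and the adhesion molecule Icam1 at 12.8 and 11.4 against 2.31, 4.83 and 1.21. Resistant 2 was the highest of the 7 libraries in Isg15. In both interferon lists the share without overlap upward was below the 14.7% of all genes.

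Genes of the PD-1 axis were low or overlapping. Pdcd1lg2, which encodes PD-L2, was low, at 1.80 and 1.65 FPKM in the small tumors and 0.907, 1.88 and 0.732 in the resistant ones (0.36 ± 0.41, adjusted p = 0.709; 95% interval of the log2 change -0.62 to 1.34). Cd274, which encodes PD-L1, was at 4.62 and 10.3 against 11.7, 12.4 and 6.99 (-0.48 ± 0.51, adjusted p = 0.692; interval -1.69 to 0.74). Pdcd1, the receptor PD-1, was at 0.966 and 3.14 FPKM against 0.275, 0.647 and 0.0194 (1.15 ± 0.42, adjusted p = 0.361). Both ligands overlapped between the groups, and PD-1 did not. Among the 17 tested checkpoint genes 7 did not overlap upward and 2 downward, beside 14.7% and 17.3% of all genes. Their median was 0.67, with 1.12 without resistant 2 and 0.40 without resistant 3. The receptor Tigit was at 1.94 and 4.05 FPKM against 0.194, 0.388 and 0.165. The myeloid receptor Cd200r1 was at 6.57 and 2.43 against 1.05, 0.803 and 0.798, and Tnfrsf14 (HVEM) at 4.59 and 4.76 against 1.32, 2.93 and 1.51. Pvr, the ligand of Tigit, went the other way, at 31.2 and 38.3 against 85.8, 48.7 and 65.7 FPKM (-0.89 ± 0.26, adjusted p = 0.285).

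Some genes of invasion were lower in both small tumors, and the protease list as a whole was near the background. Plau, the urokinase that starts the plasmin cascade, was at 884, 947 and 610 FPKM in the resistant tumors and at 136 and 60.3 in the small ones, with the large tumors between at 209 and 368 (-3.12 ± 0.42, adjusted p = 0.135, and 0.0186 with the spread of all 25 libraries). Itga2, the collagen-binding integrin alpha 2, was at 10.0, 12.3 and 9.14 against 2.13 and 1.46 FPKM (-2.04 ± 0.21, adjusted p = 0.105, and 0.000924). The large tumors, at 12.7 and 14, had the highest Itga2. Of 15 protease genes 4 did not overlap downward and 1 upward (median -0.42, and between -0.80 and -0.21 with 1 library left out), beside 17.3% and 14.7% of all genes. The collagenase Mmp13 was at 13.1, 57.9 and 8.90 against 0.945 and 2.24 FPKM, and the membrane-bound Mmp14 at 827, 665 and 449 against 334 and 316 (-0.95 ± 0.27, adjusted p = 0.285). The AP-1 letters of the Mmp13 promoter are in the window printed above.

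Secreted and receptor genes named with them included Stc1, a glycoprotein hormone, at 151, 259 and 162 FPKM in the resistant tumors and 8.89 and 33.7 in the small ones (-3.33 ± 0.63, adjusted p = 0.199, and 0.0018 with the spread of all 25 libraries). Il11, a cytokine of the gp130 family, was at 63.6, 85.2 and 45.8 against 19.6 and 19.0 FPKM and was highest in the large tumors, at 134 and 152 (-1.66 ± 0.26, adjusted p = 0.172, and 0.535 with that spread). The endothelin receptor Ednra was at 90.7, 51.5 and 95.6 against 6.63 and 18.5 FPKM, and Lamb1, the laminin beta 1 chain, at 180, 187 and 207 against 100 and 100. Both small tumors lay below the resistant ones in each. The transcription factor Klf5 was at 19.0, 16.3 and 12.6 against 1.59 and 4.14, the potassium channel Kcnh2 at 11.8, 15.8 and 8.30 against 1.00 and 0.685, and the acyl-CoA synthetase Acsl6 at 12.3, 6.91 and 13.2 against 0.643 and 1.72 FPKM. Dll1, a Notch ligand chosen after its values were seen, was at 22.6, 30.2 and 25.1 against 1.43 and 1.47 FPKM and called with the 5 libraries alone (-3.45 ± 0.67, adjusted p = 0.0271; 0.202 in the fit of 7).

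Further lower genes were named by rule. Laptm4b, a lysosomal membrane protein, was at 111, 84.6 and 142 against 35 and 44.6 FPKM, and the RNA component of RNase MRP, Rmrp, at 39.9, 31.2 and 42.4 against 10.9 and 11.4. Pcdhga3, whose constant exons are shared across the protocadherin gamma cluster, was at 25.7, 23.7 and 36.7 against 7.51 and 8.67, so its level is uncertain. Fgd6, a guanine nucleotide exchange factor, was at 13.7, 12.3 and 15.3 against 5.66 and 6.33, the diacylglycerol kinase Dgkd at 31.3, 27.3 and 26.3 against 13.4 and 16, and the adhesion receptor Lphn2 at 19.1, 14.1 and 16.1 against 5.82 and 6.91 FPKM.

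Several genes of MAPK output were lower in both small tumors. Of 19 tested members 8 did not overlap, all downward, beside 17.3% of all genes (median log2 change -0.55, and -0.32 without small 1). In limma 5 members were lower at an unadjusted p below 0.05, beside 4.33% of all genes. Dusp6, the ERK phosphatase, was at 430, 271 and 349 FPKM in the resistant tumors against 153 and 180 in the small ones (-1.05 ± 0.28, adjusted p = 0.27). Spry4 was at 268, 97.8 and 228 against 56.0 and 83.2, Spry2 at 68.7, 45.5 and 65.7 against 36.4 and 41.0, Myc at 87.9, 44.3 and 56.2 against 33.8 and 33.8, and the ETS factor Etv4 at 110, 63.3 and 44.3 against 34.7 and 36.9 FPKM. Ccnd1, cyclin D1, overlapped at 234 and 428 FPKM against 411, 310 and 615 (-0.43 ± 0.37, adjusted p = 0.631). Dusp4 split the small tumors, with 3.84 FPKM in small 1 and 121 in small 2 against 51.3, 54.9 and 45.5, and its change turned from -1.08 to 1.24 without small 1. Without small 2 the change was -3.41 (adjusted p = 0.0212), from small 1 alone with its spread taken from the other groups.

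Genes of mitosis were lower, by an amount that depended on resistant 3. In the mitosis list 16 of 24 members did not overlap, all downward, beside 17.3% of all genes (median -0.73, and -0.29 without resistant 3). None of the 24 had an unadjusted p below 0.05. Cdc20, an activator of the anaphase-promoting complex, was at 15.4 and 17.1 FPKM against 26.5, 20.3 and 59.3 (-0.93 ± 0.43, adjusted p = 0.44), Aurka at 7.15 and 9.12 against 12.5, 11.1 and 29.5, and Bub1b at 8.47 and 7.5 against 13.1, 10.5 and 33.3. Resistant 3 was highest in each. Mki67 overlapped at 10.1 and 10.0 against 9.60, 9.42 and 33.6, and its log2 change of -0.50 became 0.08 without resistant 3. Among 20 DNA replication genes 3 did not overlap, all downward, a share no higher than the 17.3% of all genes (median -0.42, and -0.04 without resistant 3); Cdt1, a licensing factor, was at 10.1 and 11.6 against 28.7, 12.7 and 16.3, the helicase subunit Mcm2 at 16.8 and 14.9 against 19.7, 18.5 and 33.6, and Cdc45 overlapped at 9.33 and 12 against 20.0, 11.7 and 24.1 FPKM.

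**Figure D3:**
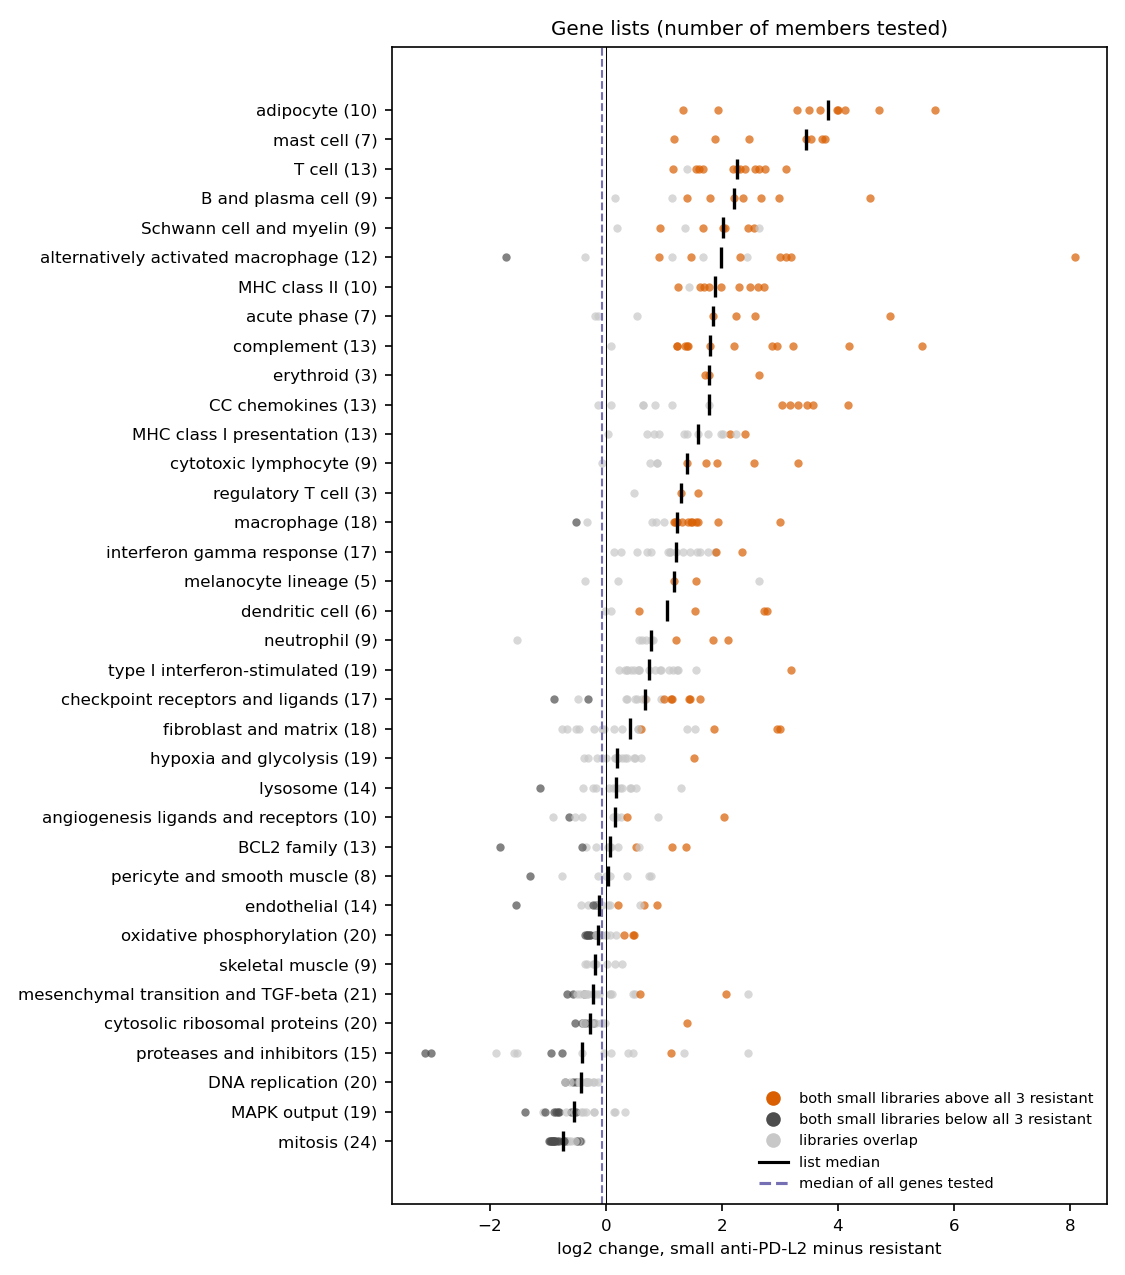
Log2 change (small minus resistant, x axis) of each tested member of the gene lists with at least 3 tested members; dots are genes, orange or dark where both small libraries lie above or below all 3 resistant ones, black bars are list medians and the dashed line the median of all genes at -0.07. Adipocyte (3.84), mast cell (3.46) and T cell (2.26) lists had the highest medians and the mitosis list (-0.73) the lowest.

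Stromal genes split by tumor. Of 18 fibroblast and matrix genes 4 did not overlap, all upward, beside 14.7% of all genes. The list's median was 0.42, with 0.20 without resistant 1, 0.02 without small 1 and 0.94 without small 2. Dermatopontin (Dpt) was at 374 and 99.3 FPKM against 16.8, 45.8 and 16.2 (3.00 ± 0.77, adjusted p = 0.256, and 0.00899 with the spread of all 25 libraries) and osteoglycin (Ogn) at 28.0 and 12.4 against 1.22, 6.51 and 8.63. Collagen Col1a1 was at 3379 in small 1 and 508 in small 2, against 312, 2050 and 189, so it overlapped. Fbln7, a fibulin of the matrix, was at 15.5 and 14.6 FPKM against 2.00, 2.97 and 2.81 (2.17 ± 0.20, adjusted p = 0.105, and 0.00199), and spondin 2 (Spon2) at 31.7 and 21.5 against 0.299, 2.06 and 0.386 (3.94 ± 0.43, adjusted p = 0.105, and 0.00153). Both genes were even between the small tumors, and the large tumors stayed near the resistant level, with Fbln7 at 3.21 and 2.89. Among 21 genes of mesenchymal transition and TGF-beta 2 did not overlap upward and 3 downward, shares below the 14.7% and 17.3% of all genes. Their median was -0.22, with -0.03 without resistant 1 and -0.13 without small 1. Zeb2 was at 22.1 and 16.3 against 12.5, 10.3 and 14.3, and Tgfb2 at 5.72 and 7.32 against 11.4, 14.5 and 7.77 FPKM. Axl overlapped at 160 and 198 against 259, 160 and 191 FPKM.

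Vascular genes showed no common direction, and the counts below stand beside 14.7% of all genes upward and 17.3% downward. In the endothelial list 3 of 14 tested members did not overlap upward and 3 downward (median -0.12). The junction gene Cdh5 was at 9.13 and 5.83 FPKM against 11.9, 49.4 and 21.0 (-1.55 ± 0.56, adjusted p = 0.361), while Pecam1 was at 11.6 and 16.1 against 7.21, 9.94 and 7.87 and Tek at 3.39 and 1.15 against 0.690, 0.657 and 0.637. Of 8 tested pericyte genes 1 did not overlap, downward (median 0.04, and between -0.61 and 0.52 with 1 library left out): Pdgfrb was at 39.0 and 34.5 against 114, 150 and 46.4 FPKM. In the angiogenesis list 2 of 10 lay upward and 1 downward (median 0.16), with Angptl4, a lipase inhibitor, at 46.8 and 21.4 against 9.50, 6.69 and 5.27 and Angpt2 at 1.92 and 1.16 against 2.57, 3.49 and 2.71.

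Schwann cell and myelin genes were higher for 6 of 9 tested members (median 2.01, and 1.24 without small 2), in 2 patterns. Mbp, a myelin protein, was high in both small tumors, at 7.34 and 12.7 FPKM, against 0.653, 1.68 and 0.367 in the resistant ones (2.56 ± 0.37, adjusted p = 0.142). Pmp22 was at 108 and 50.7 against 14.9, 19.5 and 17.4, but at 90.8 in large 1. S100b, a calcium-binding protein, was in contrast high in small 2 and large 1 alone, as Sox10 was. It was at 12.4 FPKM in small 2 and 20.2 in large 1, and at 0.440 in small 1. Ednrb, an endothelin receptor of melanocytes, was highest in small 1 at 14.1 FPKM, against 2.44 in small 2 and 1.41, 1.08 and 1.93 in the resistant tumors.

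Small 2 shared a further set of genes with large 1. In 40 tested genes both lay at least 2 log2 units above the other 5 libraries, counted after Sox10 was seen and without a test. The endothelin-converting enzyme homolog Ecel1 was at 515 FPKM in small 2 and 662 in large 1 against at most 4.31, the receptor Erbb3 at 8.88 and 28.3 against at most 0.66, and transferrin (Trf) at 2029 and 5010 against at most 182. These 3 were chosen after their values were seen. Small 1 had its own set: 69 genes lay at least 2 log2 units above the other 6 libraries, among them, chosen the same way, Serpinb2 at 57.1 FPKM against 0.790 in small 2 and Sfrp2 at 97.4 against 6.96. Mfap5, a microfibril protein, was at 157 in small 1 and 13.8 in small 2, against 5.91, 8.02 and 2.97 in the resistant tumors. In 15 genes both small tumors stood at least 2 log2 units above all other 5 libraries, and in 16 small 1, small 2 and large 2 did so above the other 4. Between the small tumors 122 genes were at least 2 log2 units higher in small 1 and 266 in small 2.

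**Figure D4:**
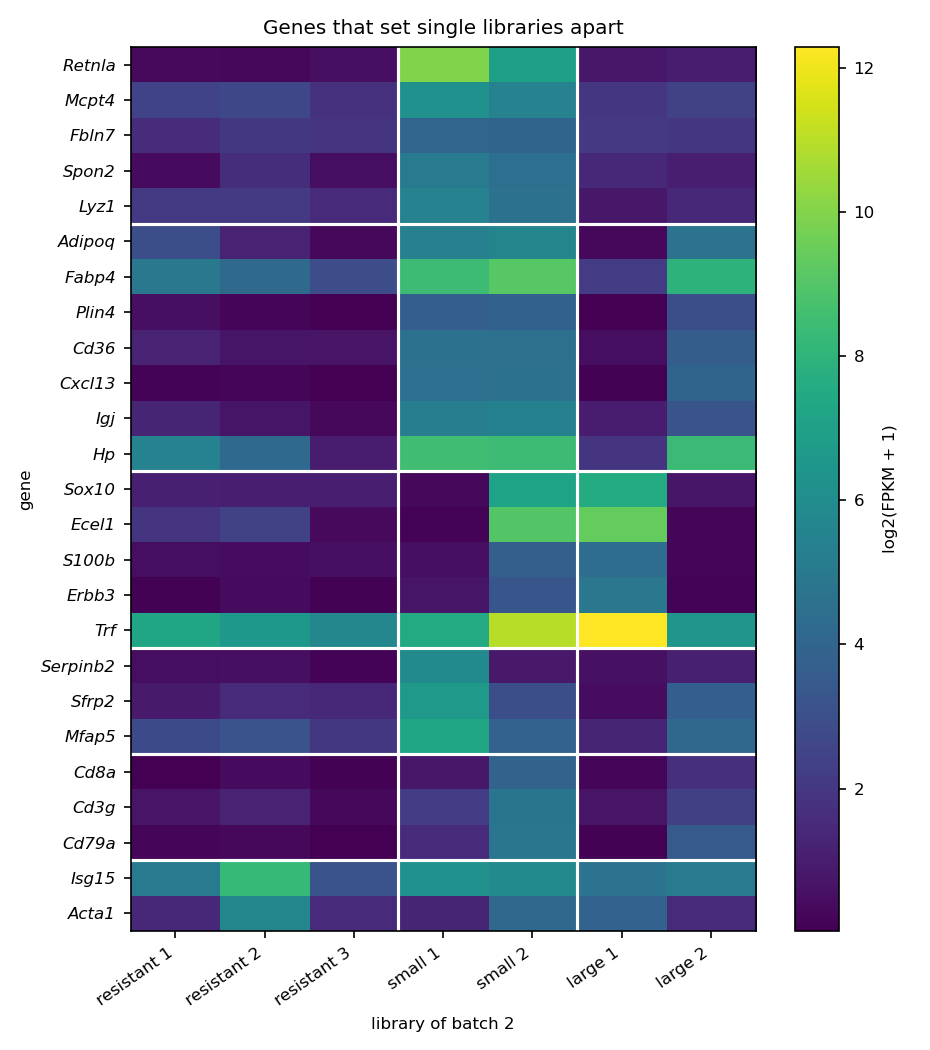
Log2(FPKM + 1) (colour) of 25 genes (rows) in the 7 libraries of batch 2 (columns), in blocks by the libraries in which they were high. Retnla is at 1002 and 122 FPKM in the small tumors only, Adipoq is high in both and in large 2 at 24.9, Sox10 is at 140 in small 2 and 188 in large 1, and Isg15 is at 300 in resistant 2.

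Genes of other tissues in a biopsy were read as well. The 9 tested skeletal muscle genes all overlapped (median -0.19, and between -1.47 and 1.12 with 1 library left out), and their summed list was at 209 FPKM in resistant 2, 70.6 in small 2, 46.3 in large 1 and between 6.62 and 8.91 in the other 4 libraries. Acta1, skeletal actin, was at 49.9 in resistant 2 and 16.3 in small 2, and at 1.44 in small 1; its direction turned without resistant 2 or small 1. Red cell genes were higher, with all 3 tested of 9 members clear of the resistant tumors (median 1.78, and 0.29 without the filter); Hba-a1 was at 10.9 and 12 FPKM against 0.565, 1.49 and 1.06 and Hbb-b1 at 44.9 and 19.2 against 5.80, 14.3 and 5.64, and the globins are near copies. Keratinocyte genes summed to between 5.82 and 11.8 FPKM per library, with Krt14 at most 0.0389, and 2 of 12 were tested (median -0.05). None of the 8 hair follicle genes passed the filter, and their sum stayed at or below 1.2. The part of muscle and blood in the results was not tested.

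The same residual-to-resistant contrast on the inhibitor alone can be read in batch 1, with 5 residual and 5 resistant tumors. The difference between the contrasts was tested in a fit of all 25 libraries. As said above, its spread may be too small for the resistant tumors of batch 2. Of 12196 genes 2170 differed (17.8%), 1180 with a higher and 990 with a lower change in batch 2; 652 differed without small 2 and 1237 without resistant 2 of batch 2. The antibody, the batch and the resistant tumors differ together between these contrasts and cannot be told apart. Of the 15 higher genes named by rule 14 had the same sign in batch 1, and of the 15 lower genes 14. The share of all genes with the same sign in both batches was not computed. Whether these counts exceed it is therefore unknown.

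Retnla had the widest difference between the contrasts among the named genes. In batch 1 its residual tumors ranged from 0.0558 to 11.4 FPKM and its resistant tumors from 0 to 0.12, a log2 change of 2.04 against 8.08 in batch 2 (difference 6.04 ± 0.93, adjusted p = 0.000825, at most 0.0172 in the other settings). Nnat was at 0.273 to 0.563 FPKM in the residual and 0.743 to 1.38 in the resistant tumors of batch 1, so its sign was opposite (-0.55 against 3.77, difference adjusted p = 7.47e-05). No difference between the contrasts was detected for Mcpt4, which ranged from 41.9 to 189 FPKM in the residual and from 0.401 to 18.9 in the resistant tumors of batch 1 (3.95 against 3.54, difference -0.41 ± 1.68, adjusted p = 0.884). None was detected for Fbln7, Spon2, Lyz1 and Itga2 (differences -0.04 ± 0.45, 0.04 ± 0.79, 0.04 ± 0.53 and 0.12 ± 0.38, adjusted p from 0.855 to 0.977).

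The named MAPK genes Dusp6 and Ccnd1 contrasted less in batch 2 than in batch 1. Dusp6 was at 24.2 to 74.2 FPKM in the residual and 194 to 257 in the resistant tumors of batch 1 (-2.62 against -1.05, difference 1.57 ± 0.39, adjusted p = 0.0115, and 0.0681 without small 2). Ccnd1 was at 25.2 to 97.8 and 312 to 438 FPKM (-2.96 against -0.43, difference 2.53 ± 0.49, adjusted p = 0.00342), so the small tumors of batch 2 stood above every residual tumor of batch 1 in both genes. Braf was at 4.12 to 7.35 FPKM in the residual and 31.9 to 51.3 in the resistant tumors of batch 1, and between 4.33 and 5.93 in the 5 compared tumors of batch 2 (difference 2.88 ± 0.23, adjusted p = 4.37e-07). The resistant tumors of batch 2 thus lacked the high Braf of those of batch 1. Plau was at 26.7 to 44.0 and 1126 to 1406 FPKM in batch 1, and its contrasts did not differ past the threshold (-5.26 against -3.12, difference 2.13 ± 0.91, adjusted p = 0.102).

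**Figure D5:**
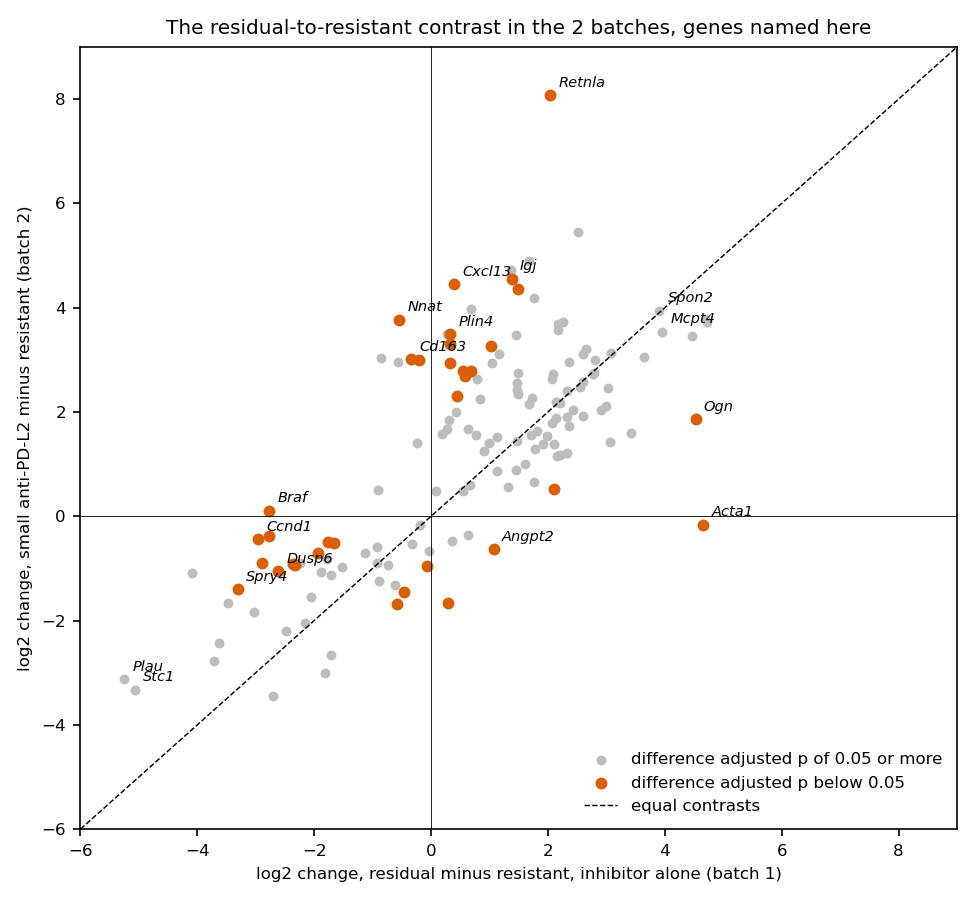
Log2 change of residual against resistant tumors on the inhibitor alone in batch 1 (x axis) and of small anti-PD-L2 against resistant tumors in batch 2 (y axis) for the genes named here that were tested in both; the dashed line marks equal contrasts and orange points differ at an adjusted p below 0.05. Retnla (2.04 and 8.08) and Nnat (-0.55 and 3.77) lie above the line, Acta1 (4.66 and -0.16) below it and Mcpt4 (3.95 and 3.54) near it.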

How the data were processed

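RNA of YUMM1.7 tumors was measured by poly(A) RNA-seq with an unstranded kit and paired reads of 100 bases, per the labels' protocols and the series' design text. The authors deposited FPKM per gene symbol for 25 libraries; TopHat, TopHat2, Cuffnorm, Cuffdiff and the build mm9 are named in the submitters' processing notes, without versions or roles. Depth is unknown, and without strand, overlapping genes cannot be told apart. All sample columns used were mapped to labels, with 0 unmapped.

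From the deposited FPKM, log2(FPKM + 1) was computed and fitted with limma 3.58.1 (R 4.3.3, variance trend, 1 term per group, two-sided, Benjamini-Hochberg adjustment) over the 7 batch 2 libraries (4 residual degrees of freedom), for genes with a mean of at least 1 FPKM over the 5 compared libraries. The difference between the contrasts of the batches used all 25 libraries; it removes a batch effect only where that is additive on the log2 scale. The script was tested on simulated data with 200 changed genes. Calls were required only for the larger changes at a narrow simulated spread. The share of changes that could be called at the spread of these libraries is not given here. Python 3.11.15 made the summaries and figures.

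Named genes were the 15 in each direction with the smallest unadjusted p among genes without overlap, since none was called, up to 3 members of each list, and Dusp6, Spry4, Ccnd1, Mki67, Mitf, Axl, Pdgfrb, Emr1, Cd8a, Cd274, Pdcd1lg2, Pdcd1, Krt14 and Acta1. Predicted genes, microRNAs, small nucleolar RNAs and receptor segments were left out. Some members the rule takes appear only in counts and are not reported here. Other genes, such as Ear2, Arg1, Mgl2, Cxcl13, Cd36, Dll1, Braf, Etv4, Dusp4, Gzmb, Isg15, H2-Aa, Col1a1, Pvr, Adipoq, Fabp4, Cd79a, Retnlg and further mast cell genes, were chosen after their values were seen. The compared tumors, genes and lists were chosen with earlier results of these data known. Alternatives were a pseudocount of 0.1, no filter, a filter over 7 libraries, size factors, a replicate block, the 5 libraries alone, all 25 libraries, library weights, no trend and each library left out; a crossed block was added after seeing the data.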

Additional observations from a re-analysis of the deposited data

Results flagged for a closer look

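In 34 of the 147 named genes followed, the change from resistant to residual tumors differed between the batches. The threshold was an adjusted p below 0.05 in the fit of all 25 libraries, which 17.8% of all 12196 genes passed. Of the 34, 26 had a higher and 8 a lower change in batch 2. Many genes were named for their values in batch 2, so these counts do not describe genes at large. The differences below are batch 2 minus batch 1 in log2 units. They were 6.04 for Retnla, 4.32 for Nnat, 2.61 for Ces1d, 2.24 for Cyp2e1 and 2.10 for Dpep1 among the higher genes named by rule. For fat genes they were 3.17 for Plin4 and 2.98 for Plin1. Myeloid genes stood at 3.35 for Cd163, 2.86 for Ear2, 2.25 for Cd209a and 1.87 for F13a1, and genes of B and plasma cells at 3.21 for Cd79a, 3.18 for Igj, 2.09 for Mzb1 and 4.06 for Cxcl13. MAPK and cell cycle genes stood at 1.57 for Dusp6, 1.91 for Spry4, 2.53 for Ccnd1, 2.00 for Etv4, 1.45 for Aurka, 1.40 for Cdc20, 1.23 for Cdc45, 1.15 for Mcm2 and 1.26 for Mki67. Egln3, an oxygen-sensing enzyme, stood at 2.39 and Braf at 2.88. The 8 lower differences were -4.82 for Acta1, -2.66 for Ogn, -1.96 for Rmrp, -1.71 for Angpt2, -1.59 for Hexa, -1.10 for Pcdhga3, -0.997 for Laptm4b and -0.88 for Mmp14.

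Retnla, Nnat, Ccnd1, Cdc45, Mcm2, Angpt2, Plin4 and Braf passed in all 20 other settings. The other 26 genes lost the call in at least 1, 22 of them without small 2, 16 without small 1 and 13 without resistant 2 of batch 2, and the direction turned in 0 of the 34.

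Dusp6 was at 74.2 FPKM in the residual tumor 5 of batch 1, apart from the other 4, which started at 24.2; by its construction the criterion used, Dixon's at the 95% level, sets a sample apart by chance in about 1 in 20 groups. Ecel1 at 662 and Sox10 at 188 FPKM in large 1, a tumor outside the comparison, stood above the resistant tumors.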

How the results depend on the processing

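The count of called genes, 0 of 11933, was 16 without the filter (15 higher, 1 lower), 5 with the 5 libraries alone (4 higher, 1 lower) and 759 with all 25 libraries (479 higher, 280 lower). It was 0 with a pseudocount of 0.1, the filter over 7 libraries, size factors, library weights or no trend. With 1 library left out it ranged from 0 to 26, from 0 to 21 higher and from 0 to 5 lower. Same-numbered libraries did not deviate together (correlations from -0.229 to 0.124), and the numbers were not taken as pairs. In a group of 2 the deviations mirror each other, so this check cannot exclude pairing. With the replicate block 0 genes were called, and 0 with the pairing of the large tumors crossed. The 2170 genes whose contrasts differed between the batches became 1769 with the block and ranged from 652 (without small 2) to 2908 with 1 library left out.

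Of 147 genes followed 137 kept their direction in every setting. With 1 library left out the direction turned for Dusp4 (-3.41 to 1.24), Egln3 (-0.98 to 0.21), Cd274 (-0.98 to 0.024), Mitf (-0.64 to 0.14), Axl (-0.319 to 0.028), Ecel1 (-1.40 to 7.48), Acta1 (-1.58 to 1.25), Braf (-0.037 to 0.247), Mki67 (-0.790 to 0.076) and Isg15 (-0.61 to 1.93). Mki67 was at 0.076 and Isg15 at -0.61 under the replicate block and its crossed form, where the median of the DNA replication list was -0.04 and that of mitosis -0.29, and Acta1 at 0.31 with library weights. Number 3 exists only in resistant 3, so the block's term takes up that library. The changes under the block are those without resistant 3 and say nothing further about pairing. The cause of the other turns was not tested.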

Other observations

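Of 19 genes of hypoxia and glycolysis 1 did not overlap, upward (median log2 change 0.20, and between -0.046 and 0.482 with 1 library left out): Pfkfb3, an activator of glycolysis, was at 14.8 and 15.4 FPKM in the small tumors against 3.93, 8.77 and 2.64 in the resistant ones. Hexokinase 2 (Hk2) overlapped at 35.7 and 30.9 against 16.7, 38.8 and 18.8. In the oxidative phosphorylation list 3 of 20 lay upward and 7 downward (median -0.13), with Cox6c at 418 and 436 against 360, 350 and 223 FPKM. Among 20 ribosomal protein genes 6 lay downward and 1 upward (median -0.28, -0.11 without resistant 1 and -0.42 without resistant 3), with Rplp0 at 1470 and 1445 against 2469, 2089 and 1821 and Rps27 reaching 40.1 in small 1 against 9.72 in small 2. In the BCL2 family 3 of 13 lay upward and 2 downward (median 0.08, and between -0.058 and 0.184 with 1 library left out); Pmaip1, a promoter of cell death, was at 3.92 and 4.5 against 15.4, 9.38 and 35.8 and Bcl2a1b, one of a set of near copies, at 37.2 and 26.3 against 14.1, 19.3 and 5.16 FPKM. Of 14 lysosomal genes 1 lay downward (median 0.18): cathepsin L (Ctsl) was at 471 and 782 against 1123, 1218 and 1698 FPKM. Over all genes tested 14.7% lay upward and 17.3% downward, the background for each list of this section.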
